A study of Mus musculus with 12 samples.

Results

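The adult globin genes Hbb-bs, Hbb-bt, Hba-a1 and Hba-a2 and the genes of haem synthesis Alas2, Cpox, Urod, Fech and Slc25a37 were followed in mouse bone marrow. They were taken by gene name from the deposited table, where all 9 names were found among 34745 genes. RNA from femoral marrow of 12 male ICR mice, an outbred stock, was sequenced, 1 library from each mouse and 3 mice in each of 4 groups. Normal mice received saline. Model, QJSB and leucogen mice shared cyclophosphamide, an alkylating drug injected at 80 mg/kg per day on days 5 to 7, which damages dividing cells. Besides cyclophosphamide, model mice received saline by mouth, QJSB mice were given Qi-Jing-Sheng-Bai granule (a herbal formula) at 3 g/kg per day, and leucogen mice had leucogen, a medicine for low white cell counts, at 20 mg/kg per day, both over 7 days. The study asked how the granule acts on cyclophosphamide leucopenia. The table heads its columns Blank, Model, Stilbene and Positive. Apart from Model these words are not group names in the labels, so Blank was read as normal and Positive as leucogen by meaning, and Stilbene as QJSB by elimination. No group received QJSB or leucogen without cyclophosphamide.

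Haemoglobin is a tetramer of alpha and beta globin chains, each holding a haem, and red cell precursors in the marrow make both in large amounts before they lose their nucleus. Haem synthesis starts in mitochondria with 5-aminolevulinate synthase, passes through the cytosol and ends in mitochondria, where ferrochelatase inserts iron. In the erythroid lineage the first enzyme is the product of Alas2, the iron enters through mitoferrin-1, and the transcription factors GATA1 and KLF1 drive the globin and several of the haem genes.

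The beta globin genes lie on chromosome 7 (Hbb-bs at 103826534 to 103828096 and Hbb-bt at 103812524 to 103813996) and the alpha globin genes on chromosome 11 (Hba-a1 at 32283511 to 32284465 and Hba-a2 at 32296489 to 32297298) in the coordinates of the deposited table, which was mapped to mm10. Alas2 lies on chromosome X (150547375 to 150570638), Cpox on chromosome 16 (58670208 to 58680391), Urod on chromosome 4 (116989965 to 116994413) and Slc25a37 on chromosome 14 (69241848 to 69285112). For 6 of the 9 genes the 250 bases before the RefSeq start (GRCm38.p6) are shown, though all 9 were lower in each comparison with normal mice. They are written 5′ to 3′ on the gene's strand, and capitals mark GATAA (the core of a GATA site), CCAAT and CACCC (the core of a KLF1 site), and also TATAA on either strand, so that a match on the other strand reads as the reverse complement. Matches that touch run together in capitals. RefSeq promoters were matched for 7 of the 9 genes. Slc25a37 is named only.
Hbb-bs, chr7:103827929-103828178, minus strand: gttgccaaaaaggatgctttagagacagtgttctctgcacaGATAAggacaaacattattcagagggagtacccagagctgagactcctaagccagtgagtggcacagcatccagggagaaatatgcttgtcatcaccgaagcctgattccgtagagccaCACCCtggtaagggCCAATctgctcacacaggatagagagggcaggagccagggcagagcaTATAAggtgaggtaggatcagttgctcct
Hbb-bt, chr7:103813924-103814173, minus strand: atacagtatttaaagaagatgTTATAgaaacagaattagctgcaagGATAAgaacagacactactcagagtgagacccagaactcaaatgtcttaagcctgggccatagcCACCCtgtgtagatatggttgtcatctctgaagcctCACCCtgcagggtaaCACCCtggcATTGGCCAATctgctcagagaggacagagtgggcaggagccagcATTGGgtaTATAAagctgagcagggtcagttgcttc
Hba-a1, chr11:32283422-32283671, plus strand: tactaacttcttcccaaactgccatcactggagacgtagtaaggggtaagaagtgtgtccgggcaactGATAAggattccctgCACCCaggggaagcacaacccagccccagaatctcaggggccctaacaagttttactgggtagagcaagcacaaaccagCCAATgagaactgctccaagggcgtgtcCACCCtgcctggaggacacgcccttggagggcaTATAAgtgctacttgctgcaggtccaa
Alas2, chrX:150547167-150547416, plus strand: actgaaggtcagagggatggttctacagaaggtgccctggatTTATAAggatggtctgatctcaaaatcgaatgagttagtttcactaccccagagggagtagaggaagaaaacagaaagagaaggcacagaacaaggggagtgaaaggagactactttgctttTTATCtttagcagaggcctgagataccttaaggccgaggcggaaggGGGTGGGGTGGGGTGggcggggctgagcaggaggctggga
Cpox, chr16:58669958-58670207, plus strand: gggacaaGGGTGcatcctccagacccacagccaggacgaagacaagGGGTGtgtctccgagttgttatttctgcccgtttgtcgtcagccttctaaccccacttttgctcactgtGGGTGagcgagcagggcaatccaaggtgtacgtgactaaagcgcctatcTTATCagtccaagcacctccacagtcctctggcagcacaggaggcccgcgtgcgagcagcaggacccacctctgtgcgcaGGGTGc
Urod, chr4:116994414-116994663, minus strand: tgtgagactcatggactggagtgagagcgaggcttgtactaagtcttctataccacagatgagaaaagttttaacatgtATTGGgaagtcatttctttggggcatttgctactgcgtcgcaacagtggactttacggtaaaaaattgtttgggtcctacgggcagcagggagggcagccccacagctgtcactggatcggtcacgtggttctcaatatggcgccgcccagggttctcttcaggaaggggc
GATAA was present in these windows for both beta globins, Hba-a1, Alas2 and Cpox, and absent from the Urod window. It occurred in 22.6% of 32851 RefSeq promoters of this length, CCAAT in 33.8%, CACCC in 52.0% and TATAA in 22.8%. Both beta globins and Hba-a1 held all 4 motifs, Alas2 held all but CCAAT, Cpox held GATAA and CACCC, and Urod held CCAAT alone. The Hba-a1 and Hba-a2 windows were identical over 247 of 247 aligned bases, whereas those of Hbb-bs and Hbb-bt matched at 51.0% of 249. These are matches of letters and not measured binding sites.

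Library totals ran from 11172547 counts in a leucogen library to 18545198 in a QJSB library. Markers of the expected marrow cells were found in every group, and no gene of the erythroid, B cell, neutrophil or promyelocyte lists was at 0 in every library. Levels are given as CPM (counts per 1000000 counts of a library) after TMM scaling in edgeR, and a gene was called changed at a change of over 1.5-fold with a Benjamini-Hochberg adjusted p under 0.05 over all genes tested. Each pair of groups was fitted on its own 6 libraries, and the comparisons share libraries with one another. Whether red cells were lysed before RNA extraction is not given in the sources used here.

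All 9 genes fell in the model group against normal, and no model library reached the lowest normal library for any of them. For Hba-a2 this rests on 17 to 24 counts in a normal library, and its low counts are no measure of its expression, as set out below. Of 14752 genes tested, 19% were called lower and 27.9% were lower with no overlap between the groups. The median log2 fold change of the 9 genes was -3.77, beside 0.02 over all genes tested. In bulk marrow, fewer red cell precursors and less of these RNAs per precursor cannot be told apart.

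**Figure D1:**
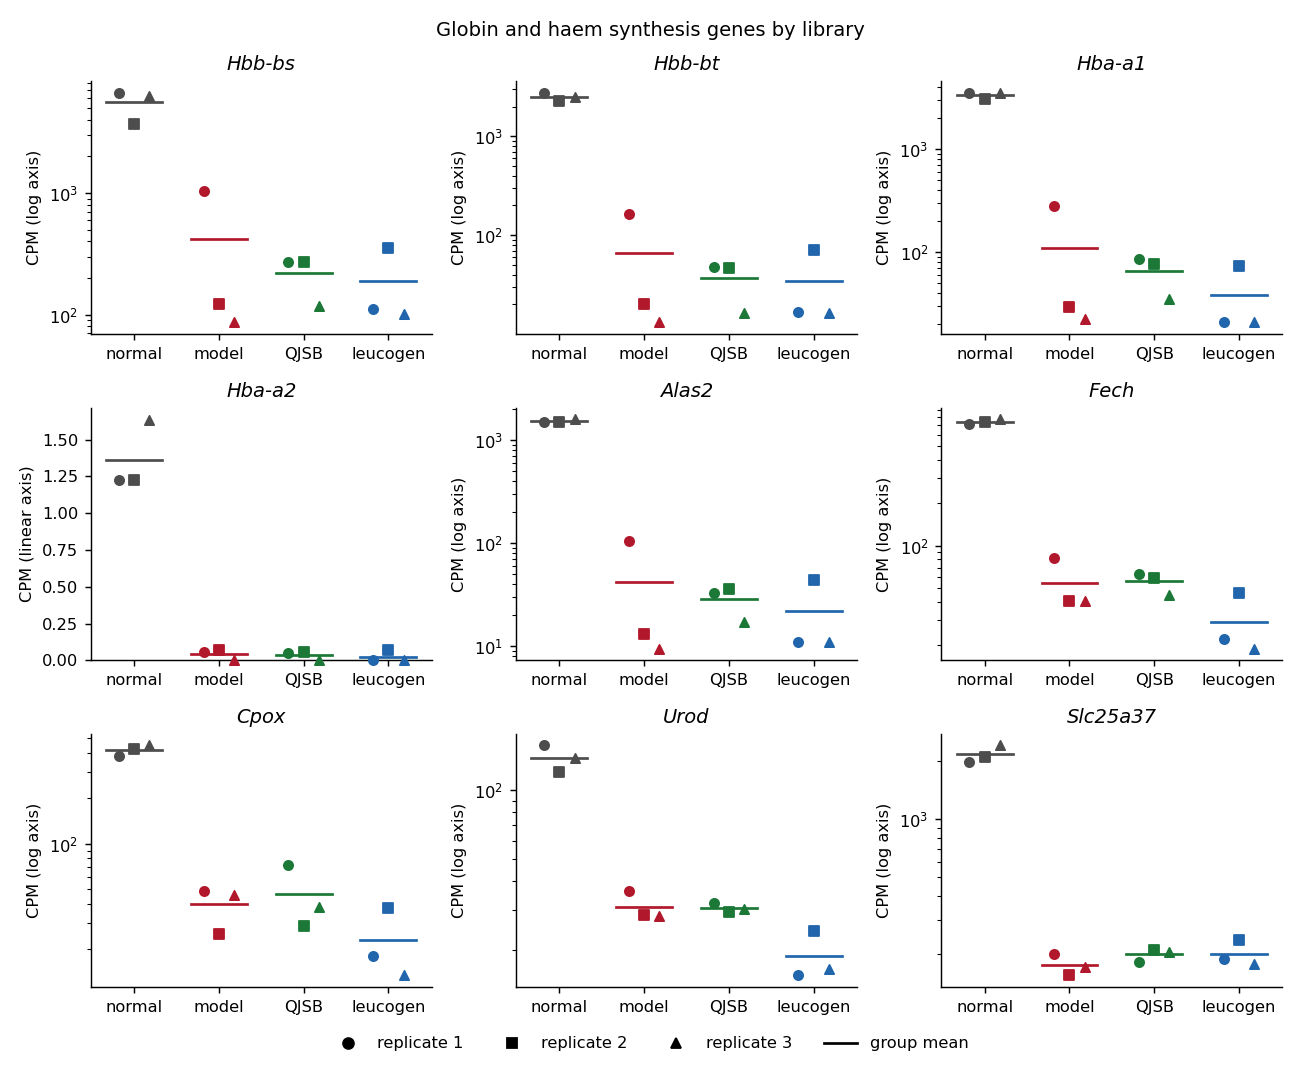
CPM of each of the 9 genes in every library by group, on a log axis except for Hba-a2, with circles, squares and triangles for replicates 1, 2 and 3 and a line at the group mean. All normal libraries lie above all others in each panel, and model library 1 is the highest of the 9 remaining libraries for the globins other than Hba-a2 and for Alas2.

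Among the beta globins, Hbb-bs (adult s chain) stood at 6702, 3698 and 6282 CPM in normal libraries 1 to 3 and at 1036, 121 and 86.0 CPM in model libraries 1 to 3. Normal library 2 was the lowest of its group and model library 1 far above the other model libraries, yet the groups did not overlap. The log2 fold change was -3.75 (SE 1.09, edgeR adjusted p = 0.0373), and this call was lost without any 1 of 5 libraries, with adjusted p from 0.0514 to 0.0914. Hbb-bt (adult t chain) stood at 2769, 2249 and 2515 CPM in normal and 164, 20.4 and 13.1 CPM in model libraries. Model library 1 was again the high one. Hbb-bt fell by 5.26 on the log2 scale (SE 1.12, edgeR adjusted p = 0.0131). Without model library 1 the log2 fold change was -5.74 for Hbb-bs and -7.23 for Hbb-bt.

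Of the alpha globins, Hba-a1 stood at 3507, 3091 and 3561 CPM in normal and 277, 29.3 and 22.1 CPM in model libraries, and fell by 4.96 on the log2 scale (SE 1.15, edgeR adjusted p = 0.0176). Normal libraries were close to each other and model library 1 was far above the other model libraries. Hba-a2 carried 17, 18 and 24 counts in normal libraries and 1, 1 and 0 in model libraries, at least 7.30-fold lower when the model group was set at 3 counts. Without a filter on low counts, Hbb-bs, Hbb-bt and Hba-a1 missed the call (edgeR adjusted p = 0.112, 0.0518 and 0.064). The transcripts within each pair share much of their sequence. Of all 50-base stretches of the spliced transcript, 86.9% of Hba-a2 and 67.5% of Hba-a1 occur in the other gene, as do 65.8% of Hbb-bs and 58.3% of Hbb-bt in the other beta globin, against 0 for Alas2. How the counting shared such reads is not given in the sources used here, so the division of counts within each pair is uncertain, and a low Hba-a2 count is no measure of its expression. Without model library 1 the log2 fold change of Hba-a1 was -7.04.

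Alas2, the erythroid first enzyme, stood at 1491, 1488 and 1600 CPM in normal and 104, 13.1 and 9.45 CPM in model libraries. It followed the order seen for the globins, with model library 1 above the others, and fell by 5.18 on the log2 scale (SE 1.07, edgeR adjusted p = 0.0119). Without that library its log2 fold change was -7.08. The later enzymes were steadier between mice. Urod (uroporphyrinogen decarboxylase) stood at 157, 119 and 138 CPM in normal and 36.0, 28.4 and 28.1 CPM in model libraries, the smallest fall of the 9 genes (log2 fold change -2.17, SE 0.16, edgeR adjusted p = 4.2e-05). Cpox (coproporphyrinogen oxidase) went from 384, 421 and 448 CPM to 48.7, 25.2 and 45.8 CPM, a log2 fold change of -3.40 (SE 0.24). Fech (ferrochelatase), the last enzyme, encoded on chromosome 18 (64456550 to 64489066), went from 714, 740 and 775 CPM to 82.5, 40.8 and 41.1 CPM, a log2 fold change of -3.77 (SE 0.30). Slc25a37 (mitoferrin-1) went from 1978, 2113 and 2414 CPM to 201, 155 and 171 CPM, a log2 fold change of -3.64 (SE 0.17). Model library 1 was the highest of its group for each of these genes, by less than for the globins and Alas2.

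QJSB and leucogen mice were also below normal for all 9 genes, each called, with the same limit for Hba-a2. The background was 19.9% of 14817 genes called lower for QJSB and 19.8% of 14637 for leucogen, and the median log2 fold change of the 9 genes was -4.67 and -4.87, beside 0.02 and -0.01 over all genes. These comparisons share the 3 normal libraries with the one above and are not independent of it. In QJSB libraries Hbb-bs stood at 269, 272 and 117 CPM, Hba-a1 at 84.7, 76.3 and 34.9 CPM and Alas2 at 32.8, 35.9 and 17.1 CPM. QJSB library 3 was the lowest for each. In leucogen libraries Hbb-bs stood at 112, 354 and 101 CPM, Hba-a1 at 20.8, 72.4 and 20.6 CPM and Alas2 at 10.9, 44.2 and 10.9 CPM, so that leucogen library 2 was the high one throughout. Without it the log2 fold changes against normal were -5.70 for Hbb-bs, -7.23 for Hbb-bt, -7.34 for Hba-a1 and -7.12 for Alas2. Against normal, the log2 fold changes of Hbb-bs, Hba-a1 and Alas2 were -4.67, -5.70 and -5.74 in QJSB and -4.87, -6.46 and -6.09 in leucogen. Fech reached -3.73 and -4.65, Cpox -3.17 and -4.17, Urod -2.18 and -2.86, and Slc25a37 -3.45 and -3.41 in the same order. Hba-a2 had at most 1 count in any QJSB or leucogen library, at least 7.86-fold and 5.53-fold below normal.

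**Figure D2:**
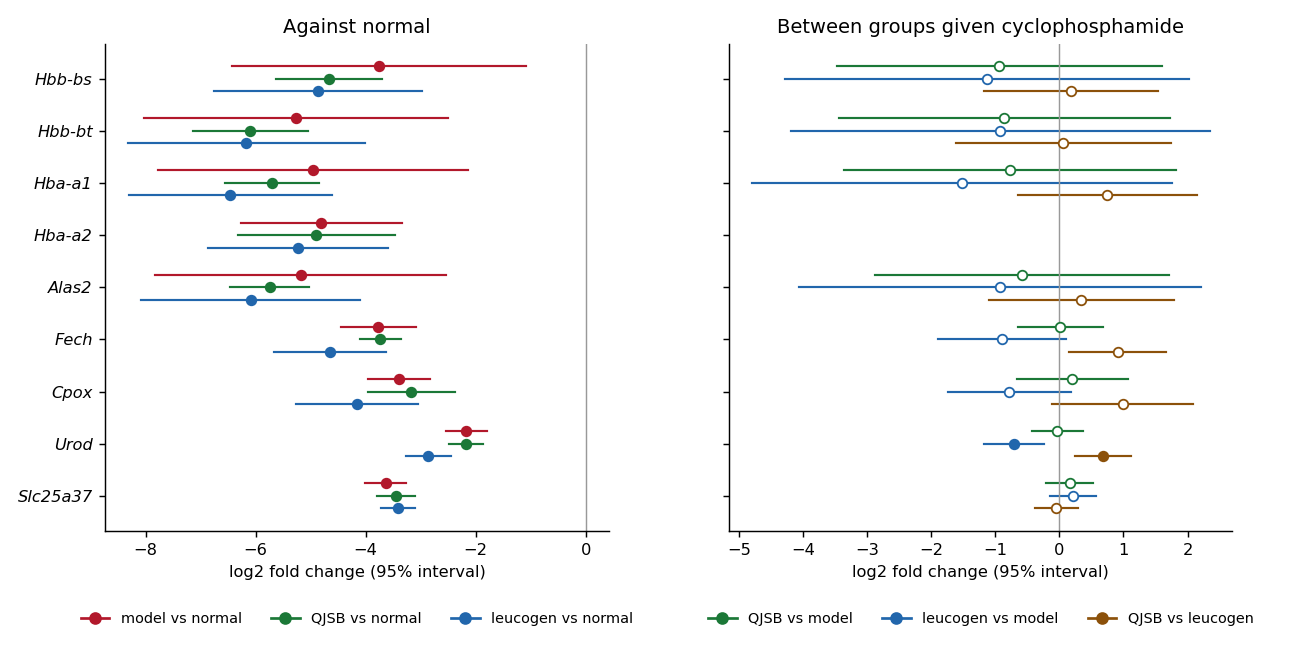
Log2 fold change (point) with its 95% interval (line) from edgeR for each gene, against normal on the left and between the groups given cyclophosphamide on the right, with filled points for called genes. All 27 points on the left are filled and below 0, while on the right only Urod in leucogen vs model and in QJSB vs leucogen is filled, and Hba-a2 is not shown because it was not tested. The Hba-a2 points on the left rest on at most 24 counts in a library.

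Per length, in the FPKM that the authors computed, the normal group mean was 3527 ± 351 (SD, n = 3) for Hbb-bt, 3168 ± 927 for Hbb-bs and 2804 ± 225 for Hba-a1, neighbours whose ranges overlapped. Alas2 followed at 472 ± 25.0, Fech at 253 ± 13.5, Slc25a37 at 175 ± 20.2, Cpox at 130 ± 11.4 and Urod at 27.1 ± 3.55 FPKM, and from Hba-a1 to Urod no range touched the next. Hba-a2 came last at 1.29 ± 0.238 FPKM. Counts divided by FPKM gave Hbb-bs 2.47 times the length of Hbb-bt, although the spliced transcripts of GENCODE M21 hold 628 and 703 bases, so the per-length order of the beta globins depends on the length the authors used. In the model group Hbb-bs led at 266 ± 352 FPKM and Hbb-bt and Hba-a1 followed at 104 ± 137 and 102 ± 138 FPKM, spreads that exceed their differences. Fech, Slc25a37, Alas2 and Cpox lay between 13.4 and 20.4 FPKM on average in the model group, with overlapping ranges, so the rank of Alas2 above these genes was seen in normal mice and was not resolved in model mice.

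For QJSB against model, which asks what the granule changed on top of cyclophosphamide, none of the 8 genes tested was called. Of 14486 genes tested, 0% were called at the adjusted cutoff and 3.08% (446 genes) at the same size of change with an unadjusted p under 0.05, and none of the 8 was among the latter. DESeq2 also called 0 of them. The log2 fold change was -0.94 for Hbb-bs (95% interval -3.48 to 1.60), -0.86 for Hbb-bt (-3.45 to 1.72), -0.77 for Hba-a1 (-3.36 to 1.82) and -0.59 for Alas2 (-2.89 to 1.71). These wide intervals hold both large rises and large falls. Without model library 1 the values were 1.06, 1.12, 1.32 and 1.32, again not called. With the replicate block, which pairs QJSB with model libraries by number, they were -0.09, -0.11, 0.12 and 0.21, not called either, so their direction was not resolved. The steadier genes gave narrower intervals, with Fech at 0.01 (-0.66 to 0.68), Cpox at 0.20 (-0.66 to 1.07), Urod at -0.03 (-0.43 to 0.36) and Slc25a37 at 0.16 (-0.20 to 0.53). For Fech, Urod and Slc25a37 a shift of 1 log2 unit in either direction lay outside the interval. Hba-a2 was too low to be tested between these groups.

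Leucogen against model gave 1 called gene of 8. Urod stood at 15.4, 24.2 and 16.4 CPM in leucogen libraries, all below the 28.1 CPM of the lowest model library, with a log2 fold change of -0.71 (SE 0.21, edgeR adjusted p = 0.0343). Of 14184 genes tested, 11.5% were called lower and 23.1% in either direction, so 1 of 8 is near the background. The Urod call was lost without leucogen library 1, leucogen library 3 or model library 1, with adjusted p from 0.112 to 0.135 and log2 fold changes from -0.63 to -0.57. It was also lost with the replicate block (log2 fold change -0.72, edgeR adjusted p = 0.059). Fech (22.0, 46.6 and 18.8 CPM in leucogen) and Cpox (17.9, 37.4 and 13.4 CPM) overlapped the model group at leucogen library 2, with log2 fold changes of -0.90 and -0.78 and edgeR adjusted p of 0.155 and 0.194. Without that library both were called, at -1.40 and -1.32 (edgeR adjusted p = 0.0349 and 0.0251). The globins and Alas2 gave log2 fold changes from -1.52 to -0.92, none called, and without model library 1 from 0.58 to 1.06. Slc25a37 gave 0.21 (95% interval -0.14 to 0.57).

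Between the treatments, Urod was the called gene of 8, higher in QJSB at 32.2, 29.2 and 30.3 CPM than in any leucogen library (log2 fold change 0.67, SE 0.19, edgeR adjusted p = 0.0309). The background was 12.9% of 14266 genes called higher, and 15.8% at the unadjusted cutoff, which Fech also passed (log2 fold change 0.91, SE 0.33, edgeR adjusted p = 0.0729). Fech stood at 63.2, 59.7 and 45.3 CPM in QJSB, and QJSB library 3 lay below leucogen library 2. With the replicate block, which pairs libraries by number, Fech was called (log2 fold change 1.01, edgeR adjusted p = 0.0227), as it was with DESeq2 and limma-trend. Cpox (72.7, 28.5 and 38.1 CPM in QJSB) gave 0.98 and Hba-a1 0.75, neither called, while Hbb-bs (0.18), Hbb-bt (0.06), Alas2 (0.34) and Slc25a37 (-0.05) were nearer to 0. Leucogen library 2 decided much of this, since 5 genes were called without it (Hba-a1, Alas2, Fech, Cpox and Urod). The Urod call was lost without QJSB library 2 or 3 or without leucogen library 1 or 3 (adjusted p from 0.0542 to 0.128).

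The division of globin counts within a library needs no scaling between libraries. Hbb-bt made up 29.2, 37.8 and 28.6% of beta globin counts in normal libraries 1 to 3, and 12.3 to 16.6% in the 9 libraries of mice given cyclophosphamide, with no overlap. Group means were 31.9 ± 5.15% (SD, n = 3) in normal, 13.8 ± 0.576% in model, 14.0 ± 1.51% in QJSB and 14.6 ± 1.82% in leucogen. The lowest share, in QJSB library 3, rested on 2178 beta globin counts (95% Wilson interval 10.9 to 13.7%) and the highest of the 9, in leucogen library 2, on 5843 (15.7 to 17.6%). Intervals cover counting error only. With 3 against 3 the exact two-sided permutation test cannot go below p = 0.1, which each of the 3 comparisons with normal gave. Setting the 9 libraries against the 3 normal ones, a grouping chosen after seeing the data, gave an exact permutation p of 0.00909. This is the smallest that the split allows (0.0182 adjusted over 6 within-library measures). With the lack of overlap already seen, that value was fixed in advance and adds no support. It also pools 3 differently treated groups. The shared sequence of the pair, given above, limits the Hbb-bt share.

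Alpha globin made up less of the globin counts in the mice given cyclophosphamide. The log2 ratio of alpha to beta globin counts was -1.43, -0.94 and -1.30 in normal libraries 1 to 3 and -2.11, -2.27 and -2.16 in model libraries. QJSB libraries gave -1.90, -2.06 and -1.93, and leucogen libraries -2.62, -2.55 and -2.51. No pair of groups overlapped, and the order was normal, QJSB, model and leucogen from high to low. Group means were -1.23 ± 0.25, -1.97 ± 0.08, -2.18 ± 0.08 and -2.56 ± 0.06 (SD, n = 3) in that order. The spread in each group of mice given cyclophosphamide was small although model library 1 held 4800 alpha counts and model library 2 held 415. Leucogen lay 0.38 below model and QJSB 0.22 above model on the log2 scale, and QJSB lay 0.59 above leucogen. The exact permutation p was 0.1 for each of the 6 pairs, the smallest that 3 against 3 allows, and 0.1 after adjustment over them. The same split on deposited FPKM gave differences of the same sign and again no overlap for any pair. The 9 libraries against normal gave an exact permutation p of 0.00909 (adjusted p = 0.0182), with the grouping again chosen after seeing the data. The lack of overlap fixed that value in advance, and the split pools groups that differ in this ratio, so it adds no support. How reads shared within each globin pair were counted is not known. The summed alpha and beta counts, and so this ratio, may depend on it.

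**Figure D3:**
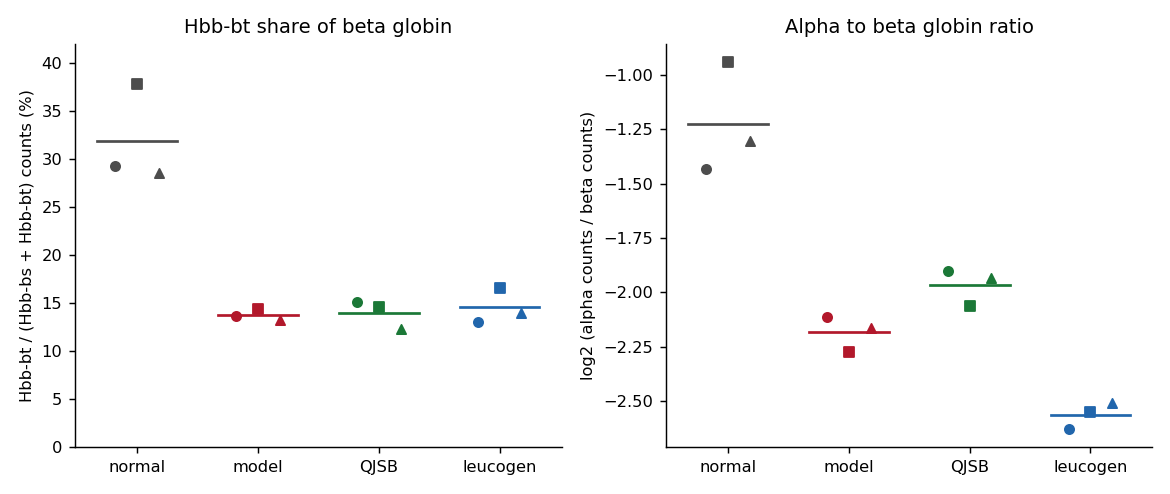
Share of Hbb-bt in beta globin counts in percent (left) and log2 ratio of alpha to beta globin counts (right) for each library by group, with circles, squares and triangles for replicates 1, 2 and 3 and lines at group means. The share is 28.6% or more in normal and at most 16.6% elsewhere, and the ratio separates all 4 groups. Sequence shared within each globin pair limits both measures.

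Together the 4 globins took 1.13 ± 0.210% (SD, n = 3) of all counts in normal mice, with the lowest library at 0.891%. The mean was 0.0655 ± 0.0872% in model, 0.0321 ± 0.0140% in QJSB and 0.0248 ± 0.0187% in leucogen. The highest of the 9 libraries, model library 1, reached 0.166%. In each comparison with normal the exact permutation p was 0.1. The 9 libraries against normal, grouped after seeing the data, gave an exact permutation p of 0.00909 (0.0182 adjusted), the smallest value possible. The lack of overlap already seen fixed that value in advance, so it adds no support.

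Genes of the red cell membrane and skeleton moved with the globins. All 12 genes of that list were called lower in model than normal, beside 19% of all genes tested. The median log2 fold change of the list was -5.51, with Slc4a1 (the anion exchanger band 3) at -5.54. Their summed CPM was 9587 to 11445 in normal, 202 to 539 in model, 202 to 483 in QJSB and 169 to 416 in leucogen. Model library 1, the highest model library for the globins, was also the highest for this sum, as leucogen library 2 was in its group. The log2 ratio of globin to membrane gene counts was 0.12 ± 0.32 in normal, 0.16 ± 1.15 in model, -0.13 ± 0.24 in QJSB and -0.07 ± 0.29 in leucogen (SD, n = 3), and every pair of groups overlapped. The exact permutation p of 9 libraries against normal was 0.627. Model library 1 stood apart at 1.45 and model library 3 at -0.73, the highest and lowest of the 12. Whether this list's change accounts for that of the globins was not tested.

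**Figure D4:**
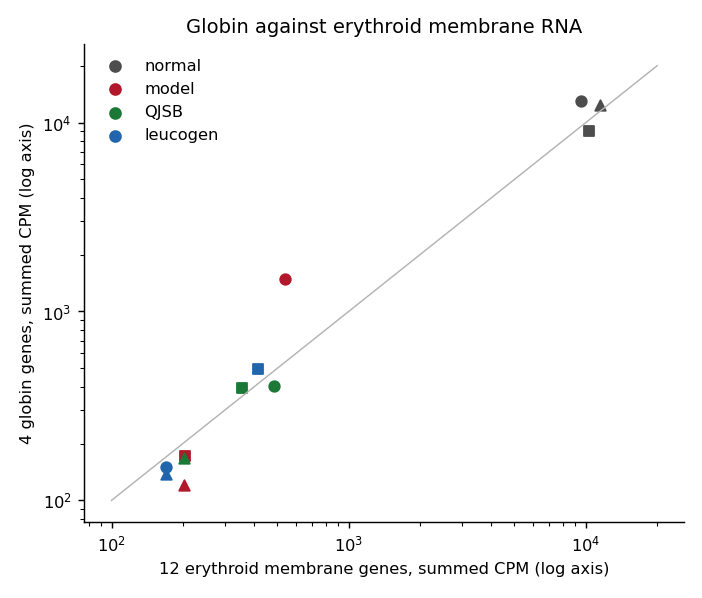
Summed CPM of the 4 globins against summed CPM of the 12 erythroid membrane genes in each library, both on log axes, coloured by group, with circles, squares and triangles for replicates 1, 2 and 3 and a grey line where both sums are equal. The 3 normal libraries lie near the line at the upper right, the others lie at the lower left, and model library 1 is above the line at 1477 CPM of globins.

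Against their own pathway, globin counts ran ahead in normal mice. The log2 ratio of globin counts to the summed counts of Alas2, Cpox, Urod, Fech and Slc25a37 was 1.18 ± 0.29 in normal, -0.09 ± 1.54 in model, -0.27 ± 0.64 in QJSB and -0.40 ± 0.65 in leucogen (SD, n = 3). QJSB and leucogen did not overlap normal (exact permutation p = 0.1 each), whereas model did, since model library 1 stood at 1.65 and the other model libraries at -0.62 and -1.28. The 9 libraries against normal gave an exact permutation p of 0.0364, which did not pass adjustment over 6 measures (0.0545).

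Other genes of haem synthesis and its transport were followed from a list of 10. In the model group 8 were called lower and 1 higher, with a median log2 fold change of -2.22. Of all genes tested, 19% were called lower and 16.1% higher. Alas1, the first enzyme in cells other than red cell precursors, was the one that rose. It stood at 76.6, 72.0 and 70.7 CPM in normal and 229, 246 and 377 CPM in model libraries, a log2 fold change of 1.95 (SE 0.19, edgeR adjusted p = 0.000135). It stood at 349, 489 and 433 CPM in QJSB and at 301, 333 and 294 CPM in leucogen libraries, with log2 fold changes of 2.53 and 2.10 against normal. Alad (porphobilinogen synthase) fell by 3.60 on the log2 scale in model, Uros (uroporphyrinogen III synthase) by 3.41 and Ppox (protoporphyrinogen oxidase) by 2.26. With Urod, Cpox and Fech, the later enzymes named here had log2 fold changes from -3.77 to -2.17 in model. QJSB against model called none of the 10 genes, where 0% of all genes tested were called. Leucogen against model called 2 of the 10 lower, beside 11.5% of all genes tested. Tmem14c, a porphyrinogen carrier of mitochondria, was 1 of these (log2 fold change -1.02, SE 0.19, edgeR adjusted p = 0.00666). QJSB against leucogen called 2 of the 10 higher, beside 12.9% of all genes tested, with Tmem14c among them at 1.09.

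**Figure D5:**
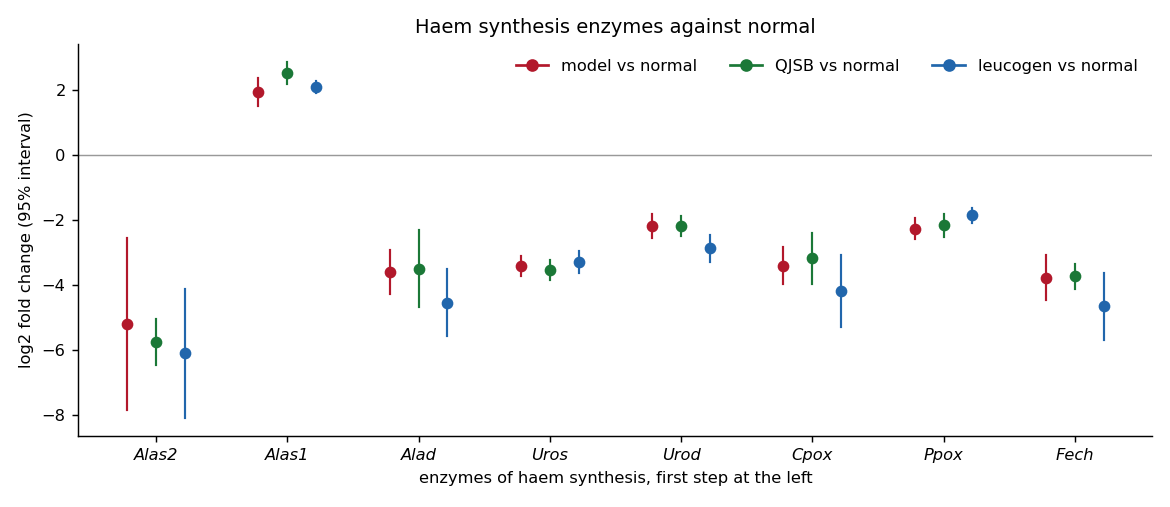
Log2 fold change against normal (point) with its 95% interval (line) for 8 enzymes of haem synthesis in order of the pathway, coloured by group, with filled points for called genes. Alas1 is above 0 in all 3 groups and the other 7 enzymes are below 0.

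Iron supply was mixed. In model 5 of 11 genes were called lower, beside 19% of all genes tested, and 0 higher. The median log2 fold change of the 11 was -0.49. Tfrc, the transferrin receptor, fell by 3.22 on the log2 scale, Steap3 (the ferrireductase of the endosome) by 2.59, Slc11a2 (which carries iron out of the endosome) by 2.16 and Glrx5 (of iron-sulfur cluster assembly) by 2.14. Slc25a28, the broadly expressed mitoferrin-2, gave 0.41 (edgeR adjusted p = 0.113) where Slc25a37 fell. Leucogen against model called 3 lower, Glrx5 (-1.14), Steap3 (-1.01) and Snx3 (-0.60), beside 11.5% of all genes tested. QJSB against model called none of the 11, where 0% of 14486 genes tested were called. Of 5 genes of haem breakdown and export in the table, 2 were called lower in model, beside the same 19%. They were Blvrb (biliverdin reductase B) at -4.64 and Hmox1 (haem oxygenase 1) at -1.43.

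Regulators of these genes were called lower in the model group at 7 of 8, beside 19% of all genes tested. The median log2 fold change of the 8 was -2.70. Klf1 fell by 5.54 (SE 0.62), Gata1 by 3.98 (SE 0.38), its partner Zfpm1 by 3.97 and Tal1 by 3.70 on the log2 scale. Bach1, a haem-sensing repressor, gave 0.08 (edgeR adjusted p = 0.644). None was called in QJSB or leucogen against model, where 0% and 23.1% of all genes tested were called. Eif2ak1, the haem-regulated kinase of translation, was higher in QJSB than leucogen (log2 fold change 0.61, SE 0.14, edgeR adjusted p = 0.0134). It was the only call of the 8 in that comparison, near the 12.9% of all genes tested that were called higher.

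Of the other globins in the table, Hbq1b (theta globin) carried 263, 261 and 321 counts in normal libraries and 19, 0 and 0 in model libraries, and 2 to 12 counts in the QJSB and leucogen libraries. Hbq1a was at 27, 26 and 40 counts in normal and 0 in all 9 other libraries, at least 11.5-fold lower in model. Both were called lower in model, beside 19% of all genes tested. The embryonic Hbb-y and Hba-x had at most 2 counts in any library. Hba-ps4, an alpha globin pseudogene, carried 264, 0 and 270 counts in normal libraries 1 to 3 and 0 elsewhere. Normal library 2, at 0 for Hba-ps4, was also the library with the lowest Hbb-bs and the highest Hbb-bt share. These mice are outbred and the reference is of another strain, and whether alleles differ at these loci was not tested.

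Markers of several other marrow cells changed in the same mice, and those of megakaryocytes were not called. In model against normal, 7 of 8 B cell genes were called lower (median log2 fold change -5.02), 7 of 10 genes of macrophages of the erythroid niche were lower (-1.26) and 6 of 6 promyelocyte genes were higher (3.16), beside 16.1% of all genes called higher. All 6 T cell genes (-2.60) and 3 of 8 proliferation genes (-0.47) were called lower. The share of all genes tested that was called lower was 19%. None of 6 megakaryocyte genes was called (0.09), nor did any pass at an unadjusted p, and their summed CPM was 168 to 359 in normal and 160 to 420 in model. Summed B cell CPM was 1586 to 1606 in normal and 8.57 to 115 in the 9 other libraries. Summed promyelocyte CPM was 743 to 961 in normal, 6653 to 9712 in model, 8281 to 9119 in QJSB and 3457 to 4618 in leucogen. Late neutrophil genes summed to 22736 to 25576 CPM in normal, 8138 to 25643 in model, 9641 to 44761 in QJSB and 55134 to 70081 in leucogen. Model library 1, highest for the globins, was the lowest model library for late neutrophil genes and the highest for B cell genes (115 CPM). CPM is a share of the library, and the part of these shifts in the globin results was not tested.

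Early erythroid genes were called lower in model than normal at 9 of 10 (median log2 fold change -5.00), beside 19% of all genes tested. In leucogen against model 1 of the 10 was called higher, beside 11.6% of all genes tested, and the median was -0.63 with 7 of 10 values below 0. The called gene was Cd24a, a surface glycoprotein of early red cell precursors, B cells and neutrophils, at a log2 fold change of 1.23 (SE 0.26, edgeR adjusted p = 0.0119). The summed CPM of the list was 10408 to 11899 in normal, 736 to 1331 in model and 1725 to 2093 in leucogen. Without Cd24a, left out after its values were seen, the sum of the other 9 genes was 5299 to 5794 in normal, 218 to 451 in model and 342 to 475 in leucogen, so that model and leucogen overlapped. The late erythroid list, which holds Alas2 itself, had 11 of 11 genes called lower in model (median -4.05), beside the same 19%. In leucogen against model 1 of 11 was called higher, near the same 11.6%. The early list shares genes with the regulator, iron and membrane lists, among them Gata1, Klf1 and Tfrc, so these lists are not independent.

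Likeness was compared over 12079 genes with a mean of at least 1 CPM, leaving out the 9 genes themselves and gene models without a name. Of these, the nearest to the mean of the 4 globins across the 12 libraries were Rsad2, Fam46c and Tmcc2. Their root mean square differences from that mean were 0.29, 0.37 and 0.37 in centred log2 CPM. Hba-a2, with 0 or 1 count in the 9 libraries of mice given cyclophosphamide, has equal weight in that mean. For the mean of the other 3 globins, a choice made after seeing the data, Rsad2, Slc4a1 and Trim10 were nearest, at 0.37, 0.41 and 0.42. Trim10 and Slc4a1 (band 3) were nearest to Alas2, at 0.26 and 0.35. Within the 9 libraries of mice given cyclophosphamide, Trim10 was the nearest to both, at 0.25 for the 4 globins (0.32 for the 3 without Hba-a2) and 0.24 for Alas2. These are descriptions of likeness over libraries that share the contrast between normal and drug-treated mice.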

How the data were processed

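The authors depleted ribosomal RNA from femoral marrow RNA and sequenced strand-specific libraries. Reads were filtered with Seqtk and mapped with Hisat2 to mm10, and the counting program and annotation version are not given in the sources used here. The deposited table holds whole-number read counts for each gene and library, without normalization. It also holds FPKM, which the authors computed from mapped fragments, transcript length and the fragment total. Of the sample columns, 0 were left unused.

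Counts were tested with edgeR 4.0.16 in R 4.3.3 (TMM, filterByExpr, robust glmQLFit, glmQLFTest), each pair of groups in a fit of its own 6 libraries over all genes. The script was tested on simulated counts. Log2 CPM for likeness used a prior count of 2. Within-library ratios were compared by exact two-sided permutation tests. Where no library of a group passed 3 counts, the fold is a bound set at 3 counts. Alternatives were DESeq2 1.42.0, other scalings and filters, a fit of all 12 libraries, limma-trend (limma 3.58.1) on log2(FPKM + 0.1), a replicate block, FPKM in the ratios, and leaving out each library. The 9 genes were all named, any gene of the haem, iron, globin and regulator lists could be, and Slc4a1 and Cd24a were named after their values were seen. The members and lists were chosen with earlier results of these data known.

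Library totals were 14164054 to 14876552 counts in normal, 13279282 to 16922274 in model, 16758401 to 18545198 in QJSB and 11172547 to 14766064 in leucogen. Every pair of libraries in a group differed by more than counting noise (chi-square per gene 10.9 to 107), so each was 1 replicate. The labels call them biological replicates. Deviations of same-numbered libraries correlated at 0.426, 0.124 and 0.104 over 15266 genes between QJSB and model, above 0.1 in all 3 pairs. The highest correlation with a library of another number was -0.211, 0.16 and 0.165, so only number 1 stood out. Pairing by number is therefore not established between QJSB and model, and the replicate block is given as an alternative only. In the other comparisons at least 1 pair was below 0.1. Between QJSB and leucogen, however, each same-numbered pair correlated above any other number, as given below, so pairing there is not settled. Some genes of the lists are not reported here.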

Additional observations from a re-analysis of the deposited data

How the results depend on the processing

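All 9 genes stayed lower in each comparison with normal under every alternative in which they were tested. In model against normal, calls were lost without a filter on low counts for Hbb-bs (adjusted p = 0.112), Hbb-bt (0.0518) and Hba-a1 (0.064), and for Hbb-bs also without model library 2 or 3 or any 1 normal library. Low counts limit Hba-a2. Against model, total counts in place of TMM moved the median of all genes from -0.05 to -0.22 in leucogen, and from 0.02 to 0.14 for model against normal.

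In QJSB against model the pairing gave 0 calls, as without it. With the replicate block Hba-a1 was 0.12 and Alas2 0.21, and with limma-trend on FPKM 0.0025 and 0.10. Fech was -0.0845 with total counts and -0.00318 with limma-trend. Leaving out single libraries ranged from -1.42 to 1.06 for Hbb-bs, -1.34 to 1.12 for Hbb-bt, -1.25 to 1.32 for Hba-a1, -1.06 to 1.32 for Alas2, -0.16 to 0.43 for Fech, -0.28 to 0.47 for Cpox and -0.101 to 0.0945 for Urod.

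In leucogen against model, DESeq2 called 2 genes (Urod and Fech), the replicate block 0, and leaving out single libraries 0 to 3. Those ranges were -1.94 to 0.88 for Hbb-bs, -1.96 to 1.06 for Hbb-bt, -2.38 to 0.58 for Hba-a1 and -1.93 to 0.99 for Alas2. In QJSB against leucogen, DESeq2, the replicate block and limma-trend each called 2 (Urod and Fech), and leaving out single libraries 0 to 5, with ranges of -0.11 to 1.00 for Hbb-bs, -0.27 to 1.10 for Hbb-bt and -0.121 to 0.0792 for Slc25a37. Slc25a37 was 0.0328 with total counts and 0.0422 with limma-trend. In these 2 comparisons a number is the only link between samples that the labels give. Between QJSB and leucogen, same-numbered libraries correlated at 0.182, 0.132 and 0.0797. Each was above the highest correlation with another number (-0.0839, 0.0276 and -0.0155). The block changed no call against normal.

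On deposited FPKM the log2 ratio of globin to membrane genes was 0.246 higher in QJSB and 0.24 higher in leucogen than normal, and 0.00599 higher in QJSB than leucogen. The ratio of globin to haem genes was 0.012 higher in leucogen than model and differed by -0.155 for QJSB against leucogen. Leaving out single libraries, the first ratio ranged from -0.61 to 0.48 (model against normal), -0.73 to 0.37 (QJSB against model), -0.68 to 0.42 (leucogen against model) and -0.19 to 0.11 (QJSB against leucogen), and the second from -0.78 to 0.68, -0.92 to 0.55 and -0.0637 to 0.506 in the last 3 comparisons. The Hbb-bt share differed by -0.349 to 1.07 points (QJSB against model), -0.216 to 1.54 (leucogen against model) and -1.33 to 0.43 (QJSB against leucogen). The globin share of counts differed by -0.0601 to 0.0169 points (QJSB against model) and -0.0674 to 0.00951 (leucogen against model). The Hba-a2 share of alpha counts, resting on 0 or 1 count outside normal, differed by -0.0298 to 0.0907 points (model against normal), -0.0842 to 0.0363 (QJSB against model), -0.0975 to 0.023 (leucogen against model), -0.00835 to 0.0298 (QJSB against normal), -0.0402 to 0.00983 (leucogen against normal) and -0.00336 to 0.0467 (QJSB against leucogen). The alpha to beta ratio and the Hbb-bt share against normal kept their signs under every alternative run. The causes of these moves were not tested.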
